A study of Mus musculus with 44 samples.

Results

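Chemokine genes and chemokine receptor genes were described over the first week of B-cell differentiation of a mouse progenitor line grown on a stromal layer. The genes were chosen by name alone: every symbol of the deposited expression table that begins Ccl, Cxcl, Cx3cl, Xcl, Ccr, Cxcr, Cx3cr or Xcr followed by a number. That gave 58 of 23234 genes, 39 ligands and 19 receptors. All groups came from C57BL/6J fetal liver, as induced leukocyte stem cells (iLS), which are multipotent progenitors that a fusion of the inhibitor Id3 to an estrogen-receptor domain (Id3-ERT2) holds undifferentiated while 4-hydroxytamoxifen (4-OHT) is present. At 0 h they came from maintenance culture on TSt-4 cells, a stromal feeder line, with IL-7 at 20 ng/mL, SCF at 10 ng/mL, Flt-3L at 10 ng/mL and 4-OHT at 40 nM. The later groups had been moved to medium without 4-OHT in which IL-7 was reduced to 5 ng/mL, again on the feeder line. There were 3 libraries of polyA RNA at each of 0, 0.5, 1, 2, 4, 6, 8, 10, 12, 24, 48, 72, 96 and 144 h, and 1 library each at 120 h and 168 h. Every group was grown with the feeder line and carried the Id3-ERT2 construct, and no label states that feeder cells were removed before RNA was taken. No label states either that replicates were separate cultures, so p-values measure only the spread between these libraries, which may be technical.

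Chemokines are small secreted proteins that guide cells by binding G-protein-coupled receptors on their surface. In the bone marrow, CXCL12 made by stromal cells holds progenitors and early B cells in place through the receptor CXCR4. Inflammatory chemokines such as CCL2 and CXCL1 are silent or low in resting tissue cells and are switched on within minutes to hours by inflammatory or wound-like signals, often through the factor NF-kB. Blood cells are the main carriers of chemokine receptors, so in a mixed culture a ligand and its receptor may come from different cells.

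Expression was measured as FPKM, the fragments of a gene divided by its transcript length and by the size of the library, so levels are per length and can be compared between genes. Of the 58 genes, 37 (23 ligands and 14 receptors) were tested, among 13907 genes in all, because 3 or more of the 42 libraries with replicates held them at 1 FPKM or above. The other 21 were not tested, and 10 of those were listed at 0 in every library. Sequencing depth was not known in absolute terms. The steps between low values gave relative depths from 0.843 to 3.443 of the median library, with 6 h replicate 3 the deepest.

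The cell mixture moved with time, and it moved with many of the genes described here. The summed FPKM of 23 stromal feeder genes (collagens, Fn1, Sparc and others) was 557 to 2076 at 0 h, 5216 to 6708 at 1 h, 6226 to 7634 at 24 h, 3531 to 7061 at 72 h and 1573 to 2564.1 at 144 h. All 21 tested stromal genes were higher at 1, 6, 24 and 72 h than at 0 h. Lum was at 0 in every library and Dcn in 43 of 44. The sum over Ptprc and 17 other general blood-cell genes went the other way, from 2082 to 2700 at 0 h to 917 to 1230 at 1 h and 338 to 804 at 24 h, and stood at 1694 to 2059 at 144 h. Macrophage and granulocyte genes summed to 786 to 1139 at 0 h, 476 to 533 at 1 h and 175 to 378 at 24 h. Their list held 21 symbols, 20 of them in the table, with Emr1 and Adgre1 as older and newer names of the same gene. B-lineage genes, the check on the labelled differentiation, summed to 82.4 to 121 at 0 h and 1040 to 1344 at 144 h. In such bulk samples fewer cells of a type and less RNA per cell cannot be told apart, and the part of the cell mixture in the results below was not tested except through the rescaled values given further on.

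**Figure D1:**
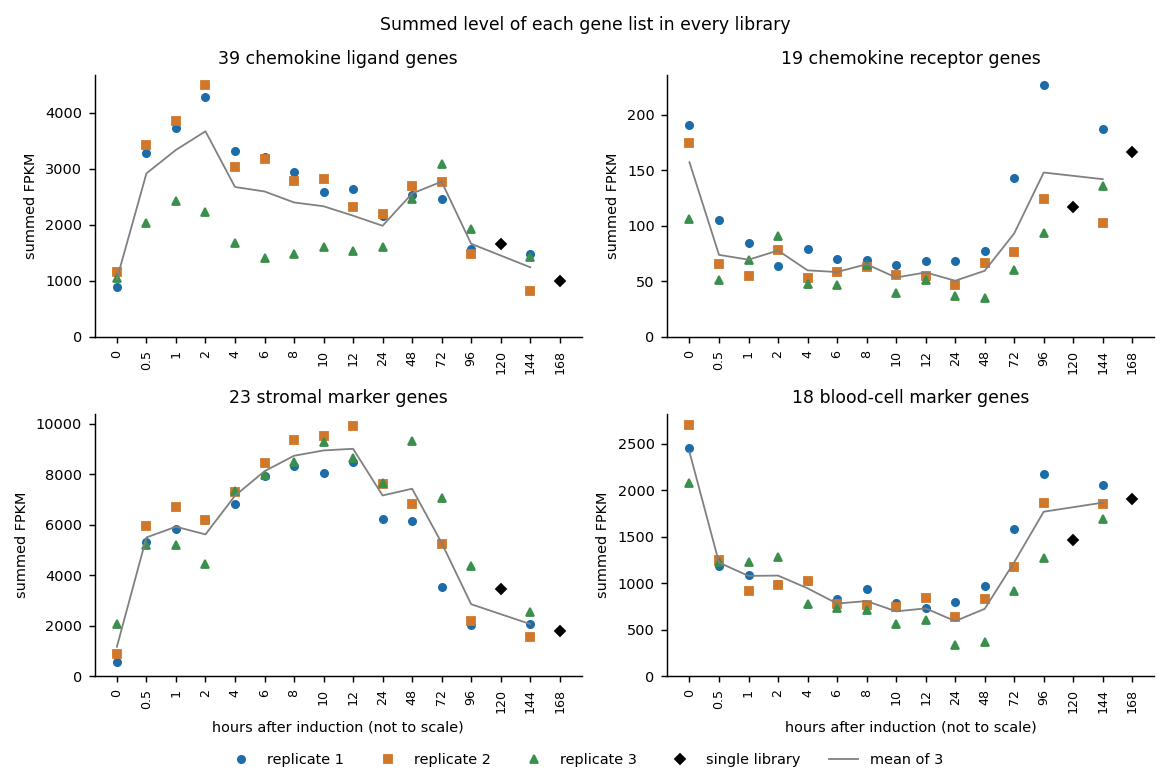
Summed FPKM by library and time point for the 39 chemokine ligands, the 19 chemokine receptors, the 23 stromal feeder genes and the 18 general blood-cell genes. Ligand sums were 896 to 1149 at 0 h and 2422 to 3856 at 1 h, whereas receptor sums were 106 to 191 at 0 h and 55.0 to 84.4 at 1 h.

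Most of the ligand genes that were called were higher after the culture change, and each receptor gene called in the comparisons of 1, 6, 24, 72 and 144 h with 0 h was lower. In limma's F test over all later time points (Benjamini-Hochberg adjustment, called at an adjusted p under 0.05), 23 of the 37 genes were called, against 56% of all genes tested. Without the libraries of replicate 2 it was 10 of 36 genes, where 25.1% of all genes were called. At 1 h, 11 of the 23 ligands were higher than at 0 h and none lower, and 4 of the 14 receptors were lower and none higher. All genes tested gave 16.8% higher and 15.3% lower in that comparison. The number lower fell to 1 with a pseudocount of 0.1 FPKM and also without the filter on low values, both of which ended the 1 h calls of Ccr7 and Cxcr5. The median change was 1.08 on the log2 scale for ligands, -0.58 for receptors and -0.08 for all genes.

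At later times the called ligands were mostly higher and the called receptors lower, with fewer calls by 144 h. The number of receptors lower was near the share of all genes at 6 h and 72 h. At 6 h, 9 ligands were higher and 3 lower, and 3 receptors were lower (19% and 19.2% of all genes). At 24 h, 7 ligands were higher and 4 lower, and 5 receptors were lower (20.8% and 22.5%). At 72 h, 11 ligands were higher and 3 lower, and 1 receptor was lower (17.2% and 8.23%). At 144 h, 4 ligands were higher and 2 lower, and 1 receptor was lower (5.64% and 3.24%), a total of 7 that became 3 without 0 h replicate 1 and 4 without 144 h replicate 2. No receptor was called higher than at 0 h in these 5 comparisons. Between 1 h and 6 h, 3 ligands fell and no gene of either class rose, where 2.4% of all genes were higher and 2.6% lower. With the replicate number as a block, 6 genes of the family fell in that comparison (3.8% of all genes). Between 24 h and 144 h, 1 ligand rose, 5 ligands fell and 2 receptors rose (17.4% and 15.6% of all genes). With the run of library codes as a block, 5 genes of the family rose there and 1 fell (16.8% and 11.4% of all genes). That block also gave 7 rather than 4 higher at 144 h than at 0 h (8.65% of all genes). With 3 libraries in each group, permutation gives no p below 0.1, so all calls rest on the model fitted across genes.

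**Figure D2:**
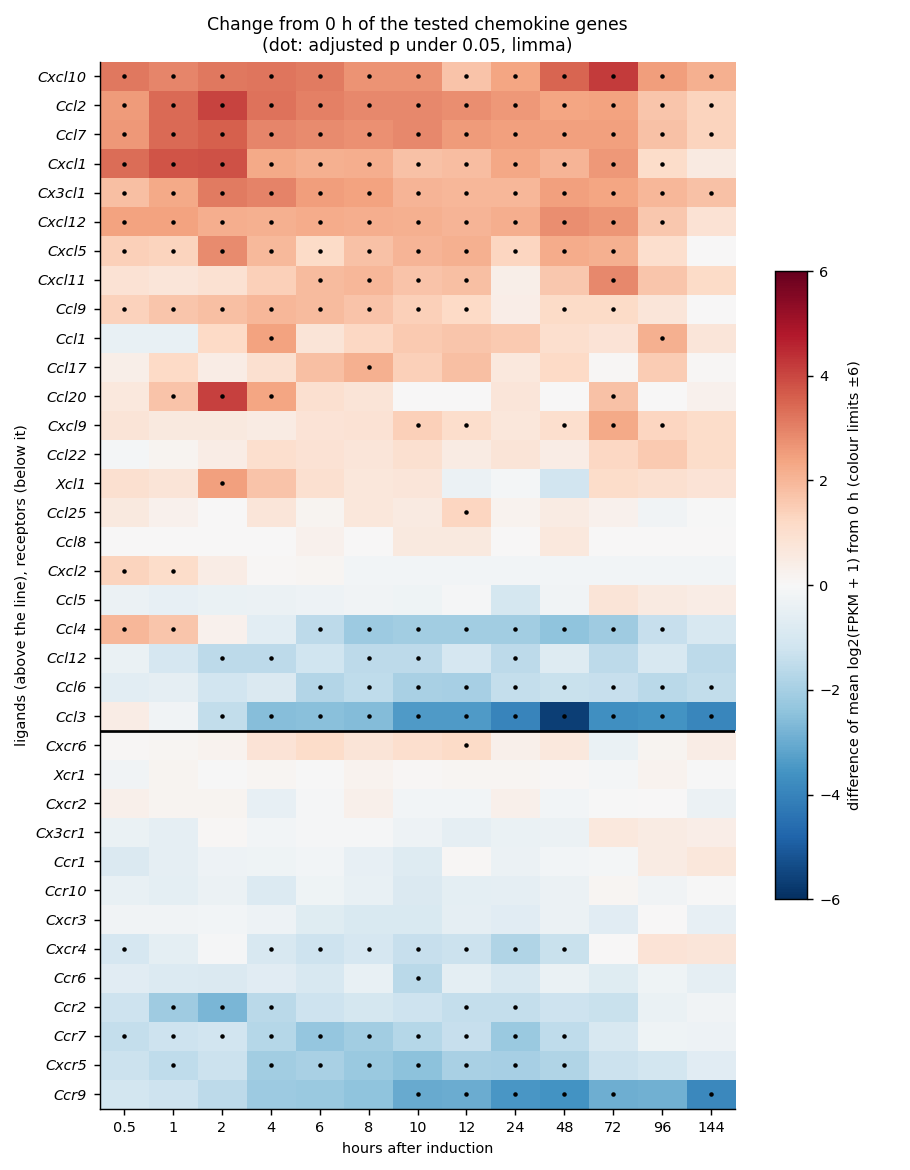
Heat map of the log2 change in FPKM + 1 from 0 h for 36 of the 37 tested genes at the 13 later replicated time points, with ligands above the line, receptors below it and a dot on each change called at an adjusted p under 0.05. Ccl2, Ccl7, Cx3cl1 and Cxcl10 carry a dot for a higher level at all 13 time points, and Ccl3 carries a dot for a lower level at 11.

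Ccl2 and Ccl7, neighbouring genes whose products attract monocytes through CCR2, gave the clearest rise among the abundant ligands. Ccl2 was at 44.5, 68.4 and 135 FPKM in the 3 libraries of 0 h, at 936, 835 and 656 after 1 h, and at 1516, 1569 and 857 after 2 h, its highest mean. All libraries of 1 h and 2 h were above all of 0 h. The rise at 1 h was 9.78-fold in the means (log2 change 3.41, SE 0.30, limma adjusted p = 4.41e-10), and at 2 h the log2 change was 4.07. The level then came down to 448, 456 and 464 after 24 h and 218, 148 and 217 after 144 h, still above every 0 h library. The 144 h rise (log2 change 1.35, limma adjusted p = 0.00306) lost its call without 0 h replicate 1, where it was 0.98.

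Ccl7 took the same course at a lower level. Its values were 20.5, 39.5 and 63.8 FPKM at 0 h, 432, 442 and 330 after 1 h, and 109, 81.2 and 103 after 144 h. It was thus above every 0 h library at both times, with a log2 change of 3.38 (SE 0.30) at 1 h. Its 144 h change of 1.35 was also not called without 0 h replicate 1 (0.94). Within a library, Ccl2 was between 1.60 and 3.55 times Ccl7 over all 44 libraries, the highest ratio being that of 168 h. At 144 h both had fallen relative to 24 h, Ccl2 by 1.25 and Ccl7 by 1.12 on the log2 scale (limma adjusted p = 0.00147 and 0.00468). With the run of library codes as a block neither fall was called (-0.88 for Ccl2 and -0.71 for Ccl7, limma adjusted p = 0.0625 and 0.117).

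The replicates differed in the size of the early rise. Replicates 1, 2 and 3 carry library codes of separate runs at 0 to 6 h, so each gives a difference within its own run. For Ccl2 at 1 h these log2 differences were 4.36, 3.59 and 2.27, and for Ccl7 they were 4.33, 3.45 and 2.35. The smallest rise in both was in replicate 3, whose 0 h library had the highest Ccl2, Ccl7 and stromal sum (2076 against 557 and 892).

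**Figure D3:**
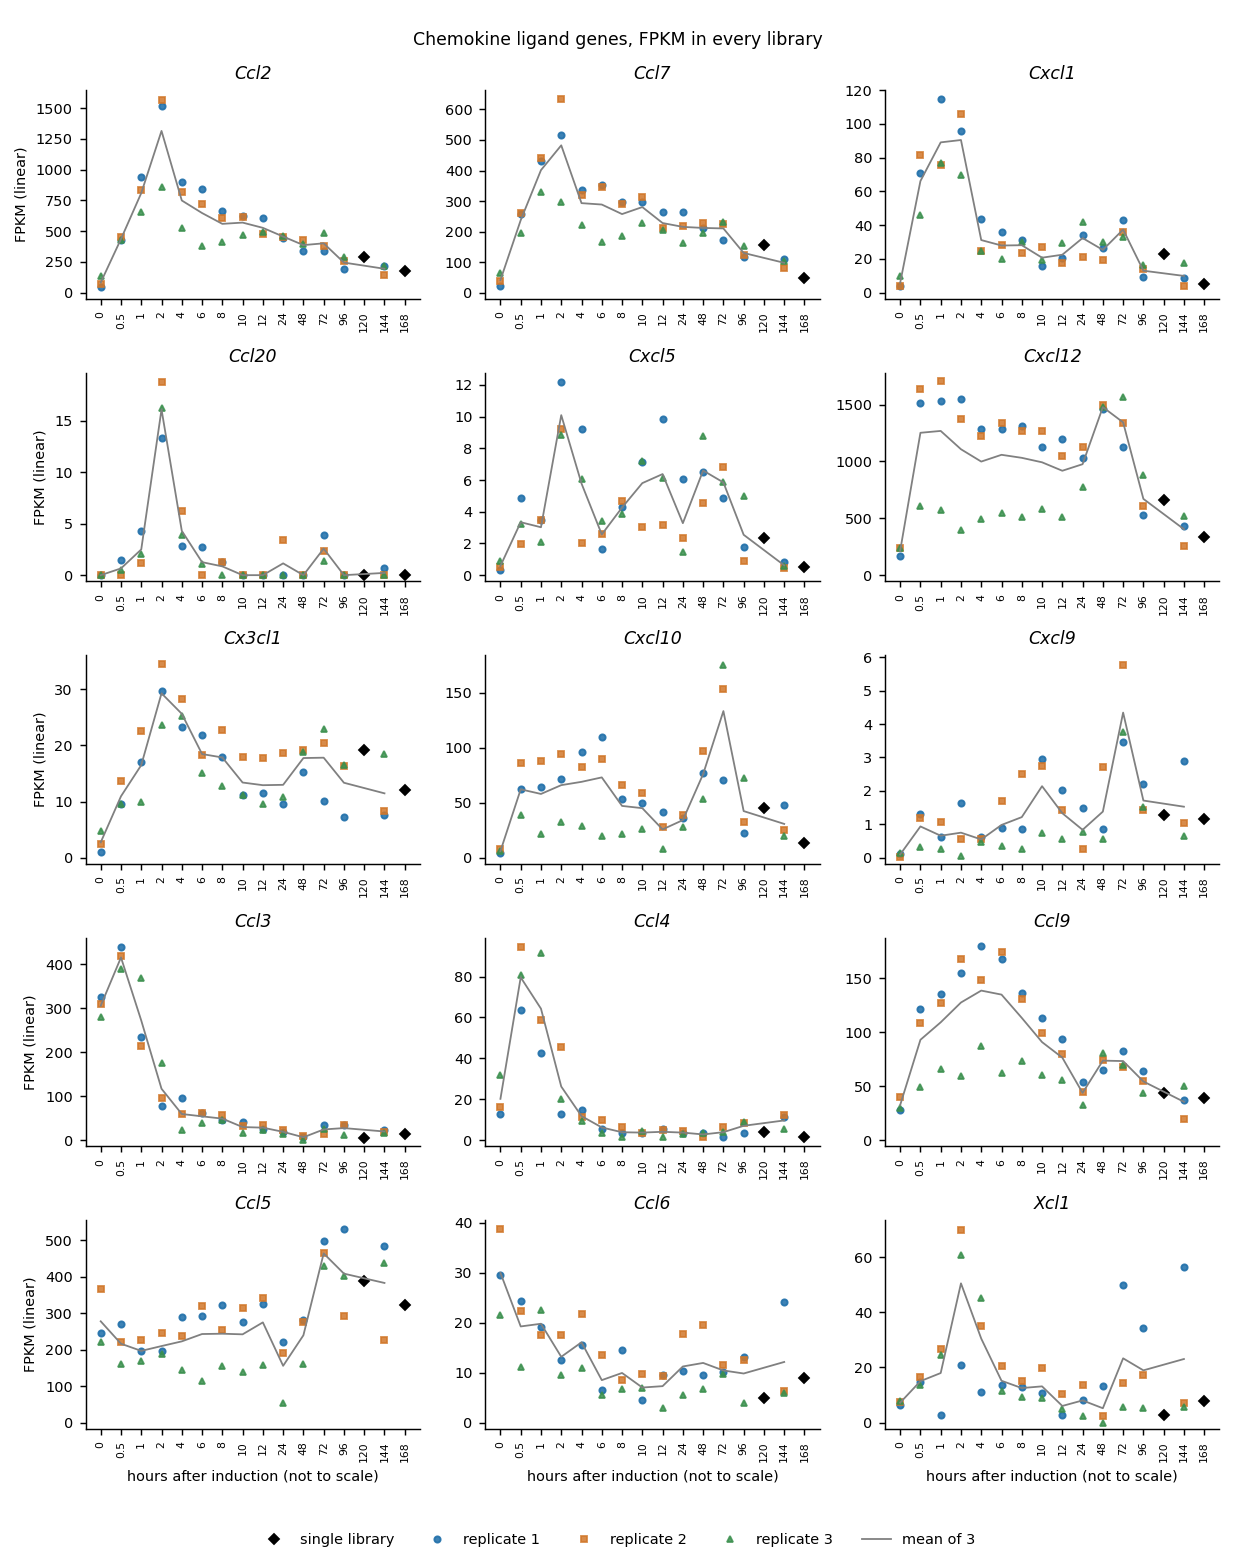
FPKM of 15 ligand genes in every library against time after the culture change, 1 panel per gene with its own axis. Most of these ligands have their highest mean between 0.5 h and 4 h, while Cxcl9 and Cxcl10 have theirs at 72 h. Ccl3 runs from 281 to 327 FPKM at 0 h down to 1.28 to 35.02 FPKM from 24 h on.

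Cxcl1, Cxcl2 and Cxcl5, which attract neutrophils through CXCR2, and Ccl20, the ligand of CCR6, rose early and from low levels. Ccl2, Ccl7, Cxcl1, Cxcl2 and Ccl20 were the genes called higher at 1 h under all 3 scalings described further on. For Ccl20, at 0 in every library of 0 h, no scaling could turn the direction. No promoter was matched for Ccl2, Ccl7 and Cxcl5, so none of them was searched for motifs. The bases just before the start of Cxcl1, Cxcl2 and Ccl20 are shown because each holds a match to the NF-kB consensus, in capitals. They are RefSeq sequences of GRCm38.p6, 120 bases ending at the base before the start, 5′ to 3′ on the gene's strand.
Cxcl1, chr5:90891125-90891244, plus strand: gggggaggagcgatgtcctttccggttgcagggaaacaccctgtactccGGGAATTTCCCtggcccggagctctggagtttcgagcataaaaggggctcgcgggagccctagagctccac
Cxcl2, chr5:90903779-90903898, plus strand: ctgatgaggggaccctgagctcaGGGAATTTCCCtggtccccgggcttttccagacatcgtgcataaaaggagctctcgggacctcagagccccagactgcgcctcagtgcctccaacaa
Ccl20, chr1:83116646-83116765, plus strand: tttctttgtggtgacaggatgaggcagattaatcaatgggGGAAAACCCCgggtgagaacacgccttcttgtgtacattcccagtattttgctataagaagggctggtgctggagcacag
In Cxcl1 and Cxcl2 matches on both strands overlap, which gives 11 capital letters. The Cxcl1 match begins 71 bases before the start, that of Cxcl2 97 bases and that of Ccl20 80 bases. Ccl9, not among these genes, held a match too, beginning 35 bases before its start. So did Ccl1, Cxcl3, Cxcl10, Ccr1 and Ccr3, of which Ccr1 was called at no time and Cxcl3 and Ccr3 were not tested. Over the 250 bases before a start, the consensus was found in 9 of the 42 genes of the family with a promoter in the table, and in 7.01% of 27025 promoters of all genes. The motif was chosen with the expression values known, and a match is a description of the letters, not a binding site.

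Cxcl1 was at 3.92, 3.95 and 9.67 FPKM at 0 h, at 115, 75.7 and 77.1 after 1 h, and at 96.1, 106 and 69.6 after 2 h. All libraries of 0.5, 1 and 2 h lay above those of 0 h, and the ratio of means at 1 h was 15.2 (log2 change 3.79, SE 0.36, limma adjusted p = 2.14e-09). By 6 h it had come down to 35.7, 28.5 and 19.7, a fall of 1.65 on the log2 scale from 1 h (limma adjusted p = 0.00481). At 144 h it stood at 8.42, 3.76 and 17.6, which overlapped 0 h, and its change from 0 h was not called.

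Cxcl5 had its peak at 2 h. It was at 0.336, 0.506 and 0.903 FPKM at 0 h, 3.49, 3.49 and 2.08 after 1 h, and 12.2, 9.23 and 8.86 after 2 h. None of the later libraries overlapped those of 0 h at these times, and the log2 change at 2 h was 2.81 (SE 0.41, limma adjusted p = 2.97e-06). At 72 h it was again high, at 4.85, 6.83 and 5.86, and at 144 h it was 0.81, 0.482 and 0.566. Its call at 1 h (1.34) was lost without 0 h replicate 1 (1.23) and that at 24 h (1.30) without 24 h replicate 1 (0.87). The call at 6 h (1.16) was lost without 0 h replicates 1 or 2 or 6 h replicates 2 or 3 (0.99 to 1.13), and the fall from 24 h to 144 h (-1.26) without 24 h replicate 1 or 144 h replicate 2 (-1.20 to -0.82). With the run of library codes as a block that fall of Cxcl5 was -0.84 and not called.

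Ccl20 was listed at 0 in all 3 libraries of 0 h, so no fold is given. Its values were 4.26, 1.21 and 2.03 FPKM at 1 h and 13.4, 18.8 and 16.2 at 2 h, where the limma adjusted p was 2.20e-08. From the steps in its values, the Ccl20 libraries of 1 h held 3, 1 and 2 fragments and those of 2 h about 18, 15 and 24. The 1 h call thus rests on a few fragments and the 2 h call on more. At 72 h it was called again, at 3.94, 2.38 and 1.42 FPKM, from 3, 2 and 1 fragments.

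Cxcl2 was the weakest of these. It was at 0, 0 and 0.372 FPKM at 0 h, at 1.00, 2.41 and 2.15 after 0.5 h and at 0, 2.47 and 2.75 after 1 h. The 1 h libraries overlapped those of 0 h, and the call (log2 change 1.08, limma adjusted p = 0.00853) was lost without 1 h replicate 2 or replicate 3 (0.74 to 0.80). In Cxcl2 the 1 h libraries held 0, 3 and 4 fragments, and with a pseudocount of 0.1 FPKM the 1 h change was not called (limma adjusted p = 0.0657). It was at 0 in every library from 8 h on. Cxcl2 reached 1 FPKM in 5 of the 42 libraries, all of 0.5 h or 1 h. It was thus tested only through the times when it was high. Part of its transcript (5.84%) shares stretches of 50 bases with Cxcl3, so its low values are uncertain to that extent.

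Cxcl12, the stromal ligand of CXCR4, reached the highest mean of the whole family. It was at 166, 240 and 235 FPKM at 0 h and at 1513, 1632 and 609 by 0.5 h, where every library was above those of 0 h (log2 change 2.43, SE 0.49, limma adjusted p = 0.000394). It was high through 72 h, with 1460, 1493 and 1478 FPKM at 48 h, the highest mean (6.90-fold over 0 h). At 144 h it was at 430, 261 and 522, above all libraries of 0 h but not called (log2 change 0.88, limma adjusted p = 0.314). With the run of library codes as a block that change was 1.74 and called (limma adjusted p = 0.00144). Between 24 h and 144 h it fell by 1.31 on the log2 scale (limma adjusted p = 0.0393), a call lost on leaving out any of these libraries except 144 h replicate 3 (-1.47 to -1.02), and by 0.56 within the 1 run of codes that holds both times. With the same block the change of Cxcl12 from 24 h to 144 h was -0.38 (limma adjusted p = 0.412).

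Set relative to the stromal genes, the change of Cxcl12 from 0 h was -0.40 at 6 h and -0.17 at 24 h, against 2.21 and 2.18 as deposited. Replicate 3 had the lowest Cxcl12 at every time point from 0.5 h to 24 h and the highest from 72 h to 144 h, and its library codes change run between 6 h and 8 h. The same 120 bases before its start held no match to the NF-kB consensus, to the AP-1 motif TGANTCA or to the interferon-response core GAAANNGAA.
Cxcl12, chr6:117168415-117168534, plus strand: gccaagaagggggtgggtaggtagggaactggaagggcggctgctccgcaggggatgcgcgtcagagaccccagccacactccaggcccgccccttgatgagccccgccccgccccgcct
The sequence is shown beside those of the early genes for comparison. No match says only that these letters are not in this window.

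Cx3cl1, the membrane-bound ligand of CX3CR1, was called higher at all 13 later times. It was at 0.994, 2.50 and 4.68 FPKM at 0 h, 17.0, 22.6 and 9.88 after 1 h, and 29.8, 34.4 and 23.7 after 2 h. The libraries did not overlap, and the mean of 2 h was 10.7 times that of 0 h (log2 change 3.13, SE 0.36, limma adjusted p = 6.29e-08). It was still at 7.60, 8.34 and 18.4 at 144 h, above 0 h in all libraries (log2 change 1.77, limma adjusted p = 0.00167).

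Cxcl9, Cxcl10 and Cxcl11, the ligands of CXCR3 known as interferon-inducible chemokines, had their highest means at 72 h. Cxcl10 was at 3.81, 8.20 and 5.85 FPKM at 0 h, and already at 62.0, 85.8 and 38.4 at 0.5 h. At 72 h it was at 70.8, 153 and 175, 22.4 times the 0 h mean, with no overlap (log2 change 4.22, SE 0.63, limma adjusted p = 6.63e-06). At 144 h it had 47.7, 25 and 19.2, still above 0 h, but that call (2.13, limma adjusted p = 0.0273) was lost without any of 3 libraries, 0 h replicate 1 and 144 h replicates 1 and 2 (1.77 to 2.22). From 0.5 h to 12 h replicate 3 was the lowest, for example 19.3 against 110 and 89.7 at 6 h.

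Cxcl9 was near 0 at 0 h, at 0.123, 0.0272 and 0.133 FPKM, and stood at 3.48, 5.78 and 3.78 at 72 h (log2 change 2.26, SE 0.40, limma adjusted p = 6.81e-05). Cxcl11 was at 0, 0.532 and 0 at 0 h and at 7.93, 5.64 and 9.22 after 72 h (log2 change 2.88, SE 0.68, limma adjusted p = 0.00173). Both sets of 72 h libraries were clear of 0 h. At 6 h Cxcl11 was spread between 0.676 in replicate 3 and 8.24 in replicate 2, and its call there (1.89, limma adjusted p = 0.0266) was lost without 0 h replicates 1 or 3 or 6 h replicates 1 or 2 (1.34 to 1.79). The window before the Cxcl10 start is shown because it holds the NF-kB consensus and an AP-1 motif, both in capitals.
Cxcl10, chr5:92348890-92349009, minus strand: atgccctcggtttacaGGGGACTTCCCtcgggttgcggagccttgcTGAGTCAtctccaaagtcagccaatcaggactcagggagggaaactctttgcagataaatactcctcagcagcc
No promoter was matched for Cxcl11. The interferon-response core lay outside this window, beginning 213 bases before the start of Cxcl10 and 175 bases before that of Cxcl9. It was also held by Ccl3 and Ccr2, genes called lower, beginning 39 and 86 bases before their starts. Ccl1, Ccl19, Cxcl14 and Cxcr1 were the other genes of the family with the core. The core was found on either strand in 7.16% of all promoters and in 8 of the 42 of the family. The AP-1 motif, which reads the same on both strands, was found in 6.87% and in 4 of 42.

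Ccl3 and Ccl4, adjacent genes whose products attract macrophages and lymphocytes, are made mainly by blood cells. Ccl3 had the highest mean of the family at 0 h, at 327, 310 and 281 FPKM. It stood at 439, 419 and 389 after 0.5 h, a change that was not called, and then declined to 61.9, 62.1 and 38.3 after 6 h, 19.1, 23.3 and 14.2 after 24 h and 8.02, 10.0 and 1.28 after 48 h. Every library from 2 h on was below all of 0 h, and the fall was called from 2 h to 144 h. It was 5.65-fold in the means at 6 h (log2 change -2.51, SE 0.47, limma adjusted p = 6.73e-05), 16.2-fold at 24 h (-3.97, SE 0.47, limma adjusted p = 5.61e-08) and 15.6-fold at 144 h. Within runs the 24 h change was -4.03 in replicate 1 and -3.68 in replicate 2.

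Compared with Ccl3, with a 0.5 h mean 1.36 times that of 0 h, Ccl4 had a larger early rise. Its values were 12.8, 16.1 and 31.6 FPKM at 0 h, 63.8, 94.4 and 80.5 after 0.5 h and 42.6, 58.6 and 91.5 after 1 h. These libraries did not overlap those of 0 h, with a ratio of means of 3.94 at 0.5 h (log2 change 2.01, SE 0.45, limma adjusted p = 0.00138). It then dropped to 5.30, 9.98 and 3.31 at 6 h, a fall of 3.22 from 1 h on the log2 scale (limma adjusted p = 2.35e-05). The call against 0 h at 6 h (-1.56, limma adjusted p = 0.00659) was lost without replicate 3 of either time (-1.25 to -1.20). At 24 h it was at 3.5, 4.49 and 3.04, from 2, 3 and 2 fragments of Ccl4. The ratio of Ccl4 to Ccl3 within a library was 0.0392 to 0.113 at 0 h, 0.145 to 0.225 at 0.5 h, 0.183 to 0.275 at 1 h and 0.321 to 0.685 at 144 h. Between these times it overlapped 0 h again, for example at 8 h (0.0338 to 0.117) and 72 h (0.0514 to 0.467).

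Ccl5, Ccl6 and Ccl9 lie beside Ccl3 and Ccl4 in gene order and went separate ways. Ccl5, a CCR1 ligand typical of lymphocytes, was at 246, 366 and 221 FPKM at 0 h, 222, 192 and 52.9 after 24 h and 485, 227 and 437 after 144 h. No change of Ccl5 from 0 h was called at any time in the fit without a block. With the replicate number as a block the 24 h change of -1.04 was called (limma adjusted p = 0.00897). With the run of library codes as a block it was -0.84 (limma adjusted p = 0.0113), and Ccl5 was higher at 72 h (1.71) and 144 h (1.36, limma adjusted p = 0.000357 and 0.00808). It rose from 24 h to 144 h (log2 change 1.46, limma adjusted p = 0.00922), and without 24 h replicate 3 this was 0.81 (adjusted p = 0.156). Within the run of codes that holds that library and 144 h replicate 3 the difference was 3.02.

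Ccl6, a CCR1 ligand of myeloid cells, was at 29.7, 38.8 and 21.5 FPKM at 0 h and 6.54, 13.5 and 5.43 at 6 h, all below 0 h (log2 change -1.76, limma adjusted p = 0.00399). It was called lower at 9 of 13 later times. At 24 h it was at 10.4, 17.7 and 5.62 (-1.43), at 72 h at 10.2, 11.5 and 9.66 (-1.40), both clear of 0 h. At 144 h it was at 24.2, 6.25 and 6.00, which overlapped 0 h (-1.48, limma adjusted p = 0.0493). The 24 h call was lost without 0 h replicate 2 or 24 h replicate 3 (-1.23 to -1.05). That of 72 h was lost without any of these libraries except 0 h replicate 3 (-1.47 to -1.20), and that of 144 h without 0 h replicates 1 or 2 or 144 h replicates 2 or 3 (-1.46 to -1.16). Ccl9, another CCR1 ligand, went up instead, from 28.2, 39.6 and 29.5 to 179, 148 and 87.5 at 4 h, with no overlap (log2 change 2.01, SE 0.41, limma adjusted p = 0.000221). At 144 h Ccl9 was at 37.1, 19.3 and 49.996, with no call. Its rise at 72 h (1.16) lost its call without any of these libraries except 0 h replicate 2 (1.07 to 1.22).

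Xcl1, a ligand of lymphocytes that attracts cross-presenting dendritic cells through XCR1, was high at 2 h and varied strongly between libraries. It was at 6.54, 7.40 and 7.69 FPKM at 0 h and 20.8, 69.9 and 60.7 at 2 h, with no overlap and an Xcl1 ratio of means of 6.997 (log2 change 2.48, SE 0.85, limma adjusted p = 0.0233). This was its only call. At 144 h it was at 56.6, 7.05 and 5.51, from 43, 3 and 2 fragments of Xcl1. Ccl12, a CCR2 ligand, was at 0, 4.43 and 3.95 at 0 h, from 0, 2 and 4 fragments, and was listed at 0 in all libraries of 24 h. The Ccl12 call at 24 h (limma adjusted p = 0.0339) was lost without any of these libraries except 0 h replicate 1 (-1.58 to -1.15).

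The receptors were fewer and lower, and none was called higher than at 0 h except Cxcr6 at 12 h. Cxcr4, the CXCL12 receptor, was the receptor with the highest mean at 96 h and 144 h. It was at 24.2, 53.4 and 30.7 FPKM at 0 h, 12.0, 17.9 and 11.9 after 6 h and 11.4, 9.75 and 6.45 after 24 h, where it was below all libraries of 0 h (3.92-fold lower mean, log2 change -1.82, SE 0.31, limma adjusted p = 2.04e-05). At 2 h, in contrast, it was at 18.4, 35.6 and 51.7, which overlapped 0 h (log2 change -0.07).

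From 48 h Cxcr4 went up again. It was at 14.6, 18.7 and 7.44 FPKM at 48 h, 41.8, 36.5 and 28.0 after 72 h, 68.5, 71.3 and 45.6 after 96 h and 51.1, 58.3 and 63.2 after 144 h, with 63.2 at 120 h and 92.5 after 168 h in single libraries. The rise from 24 h to 144 h was 6.25-fold with no overlap (log2 change 2.55, SE 0.31, limma adjusted p = 4.12e-07), and 3.11 within the run of codes that holds both times. Against 0 h, neither 96 h nor 144 h was called.

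**Figure D4:**
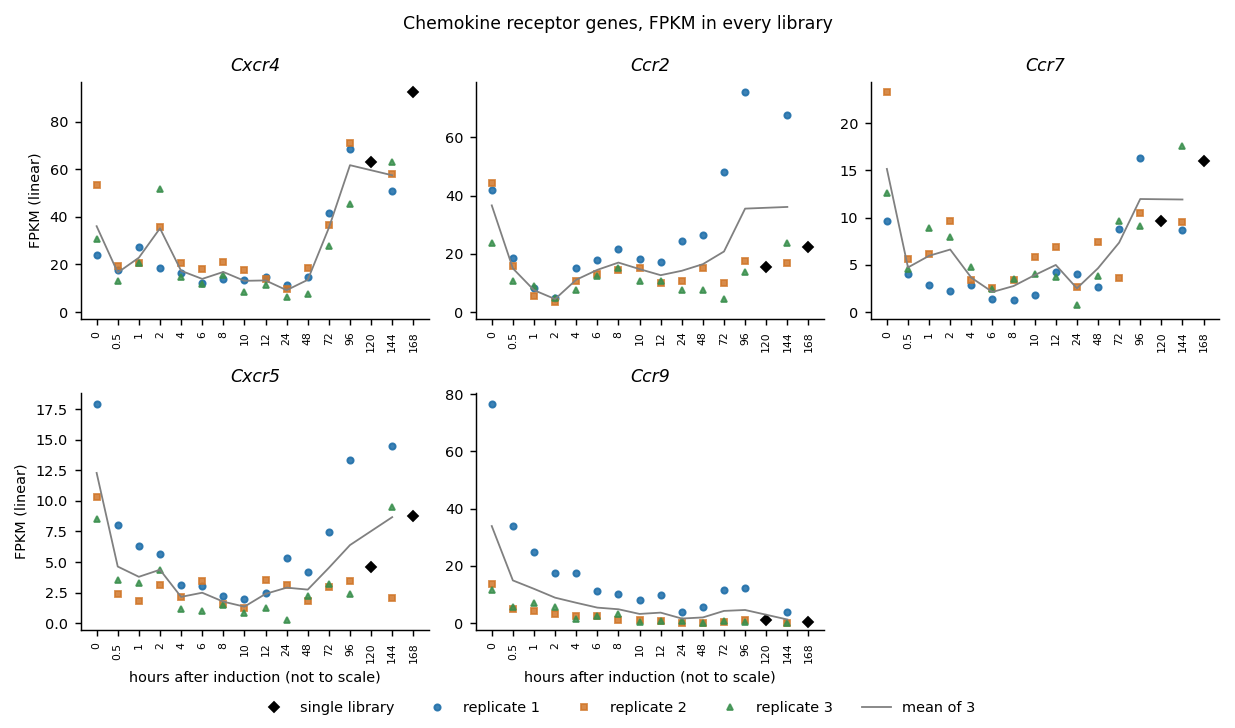
FPKM of 5 receptor genes in every library against time after the culture change. Cxcr4 and Ccr7 are lower at 6 h and 24 h than at 0 h and higher again at 144 h, while Ccr9 is highest in replicate 1 at all 14 replicated time points.

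Ccr2, the receptor of CCL2 and CCL7 on monocytes and their progenitors, was lowest at 2 h, when Ccl2 and Ccl7, though not Ccl12, were highest. It was at 41.8, 44.3 and 23.9 FPKM at 0 h, 8.11, 5.44 and 9.02 after 1 h and 4.96, 3.52 and 4.93 after 2 h. No library of 1 h or 2 h reached those of 0 h. The mean at 2 h was 8.21-fold lower (log2 change -2.75, SE 0.58, limma adjusted p = 0.000401), and within runs the 1 h changes were -2.23, -2.81 and -1.31. Later Ccr2 separated by replicate, with 75.5, 17.4 and 13.7 after 96 h and 67.7, 17.0 and 23.8 after 144 h, and the change from 0 h was not called then. At 24 h it was at 24.4, 10.7 and 7.46, overlapping 0 h, and that call (-1.42, limma adjusted p = 0.0463) was lost without 0 h replicates 1 or 2 or 24 h replicates 2 or 3 (-1.31 to -1.08).

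Ccr7, which guides lymphocytes and dendritic cells to lymph nodes, was at 9.63, 23.2 and 12.6 FPKM at 0 h and fell to 1.36, 2.57 and 2.44 at 6 h, clear of 0 h (log2 change -2.30, SE 0.45, limma adjusted p = 0.00013). The fall was already called at 1 h (-1.23), at 2.86, 6.12 and 8.88, a call lost without 0 h replicates 2 or 3 or 1 h replicates 1 or 2 (-1.31 to -0.86). It was at 4.06, 2.70 and 0.781 after 24 h and back at 8.63, 9.49 and 17.6 after 144 h, a rise from 24 h of 1.94 on the log2 scale (SE 0.45, limma adjusted p = 0.00129) with no overlap. The Ccr7 values of 6 h came from 3, 6 and 20 fragments.

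Cxcr5, the receptor of the B-cell follicle, was at 18, 10.4 and 8.56 FPKM at 0 h, 6.31, 1.80 and 3.26 after 1 h, 3.01, 3.46 and 0.984 after 6 h, 5.30, 3.11 and 0.287 after 24 h and 14.5, 2.03 and 9.53 after 144 h. Libraries of 1, 6 and 24 h were all below those of 0 h (log2 changes -1.52, -1.95 and -1.98, limma adjusted p = 0.0359, 0.00587 and 0.00458). The 1 h call was lost without 0 h replicates 1 or 2 or 1 h replicates 2 or 3 (-1.60 to -1.19) and that of 24 h without 24 h replicate 3 (-1.32). Its lowest mean was at 10 h, 9.17-fold under 0 h (log2 change -2.47).

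Ccr9, the CCL25 receptor of early lymphoid progenitors, thymocytes and gut-homing cells, was carried mostly by replicate 1. That replicate was the highest at all 14 replicated time points. Ccr9 was at 76.6, 13.6 and 11.5 FPKM at 0 h, 3.88, 0.166 and 0.672 after 24 h, 11.6, 0.515 and 0.619 after 72 h, and 3.71, 0 and 0 after 144 h. The 24 h libraries were below all of 0 h (log2 change -3.51, SE 1.08, limma adjusted p = 0.00886), but without 0 h replicate 1 this was -2.67 (adjusted p = 0.0764). The 72 h libraries overlapped 0 h, since replicate 1 reached 11.6 (-2.95, limma adjusted p = 0.0427), and this call was lost without 0 h replicates 1 or 2 or 72 h replicates 2 or 3 (-3.31 to -2.10). The call at 144 h (-3.85, limma adjusted p = 0.0208) was lost without 0 h replicate 1 or 144 h replicates 2 or 3 (-3.48 to -3.01). At 144 h the Ccr9 counts came to 39, 0 and 0 fragments. Within runs of library codes the log2 differences of Ccr9 from 0 h were -1.59, -1.53 and -0.63 for 1 h. For 6 h they were -2.65, -2.12 and -1.85, and replicates 1 and 2 gave -3.99 and -3.64 for 24 h. With the replicate number as a block, Ccr9 had an SE of 0.28 in place of 1.08. It was then called lower than at 0 h at 1, 6, 24, 72 and 144 h (limma adjusted p = 0.000753, 1.91e-07, 3.76e-10, 3.96e-08 and 3.86e-11). The block for runs gave the same calls of Ccr9 (limma adjusted p = 0.000383, 9.72e-08, 5.26e-10, 5.25e-08 and 4.91e-09).

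Replicate number set other receptors apart as well. Replicate 1 was the highest library of Ccr2 and of Cxcr5 at 12 of 14 time points, and replicate 3 was the lowest of Ccl5 and Ccl6 at 12 and of Cxcl10 and Ccr1 at 11. At 144 h the macrophage and granulocyte genes summed to 743 FPKM in replicate 1, the highest of the 263 to 743 seen there, beside its high Ccr2 (67.7) and Ccl6 (24.2). The part of other cells in these receptor levels was not tested.

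The remaining 13 tested genes stayed low. Ccl25, the CCR9 ligand, ranged over all libraries from 1.501 to 8.61 FPKM and was called higher at 12 h, at 8.61, 7.98 and 8.55 against 3.88, 2.51 and 2.24 at 0 h (log2 change 1.30, limma adjusted p = 0.00431). Ccl1, a CCR8 ligand, was called at 4 h and 96 h (2.42 and 2.15) with no more than 4 fragments of Ccl1 in any library, and the CCR4 ligand Ccl17 at 8 h with at most 6 fragments of Ccl17 in any library. Cxcr6 was called at 12 h (1.17), at 3.49, 1.82 and 5.24 against 0.288, 1.74 and 0.969. Ccr6, the CCL20 receptor, was called lower at 10 h (-1.60), at 0, 0 and 0.643 against 2.39, 2.72 and 2.60. The others (Ccl8, Ccl22, Ccr1, Ccr10, Cx3cr1, Cxcr2, Cxcr3 and Xcr1) were called at none of the 13 times, with highest values between 2.42 FPKM for Cxcr3 and 14.2 for Cxcr2.

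Several receptors had no measured partner, and several ligands had one at low level. The ligands of CCR7 (Ccl19, Ccl21a, Ccl21b and Ccl21c) and of CXCR5 (Cxcl13) were listed at 0 in all 44 libraries, as were Ccl11, Ccl26, Ccl27a, Ccl27b and Cxcl14. Ccl21a and Ccl21b, and Ccl27a and Ccl27b, share sequence, so a 0 can also come from how shared reads were counted. Cxcr2, for the ligands Cxcl1, Cxcl2 and Cxcl5, was between 2.59 and 14.2 FPKM with no call. Cxcr3, for Cxcl9, Cxcl10 and Cxcl11, reached 2.42, Cx3cr1 reached 4.08, and Xcr1 was 1.42 to 3.92. Cxcr7, the other CXCL12 receptor, reached 1.02 in 96 h replicate 3. Of the remaining untested genes, Cxcr1 reached 2.56 at 168 h, Ccr4 1.5 and Cxcl17 1.33, and Ccl24, Ccl28, Ccr3, Ccr8, Cxcl3, Cxcl15 and Cxcl16 stayed under 1 FPKM in every library.

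The single libraries of 120 h and 168 h had no replicate and were not tested. Ccl2 was at 291 FPKM at 120 h and 173 at 168 h, Cxcl12 at 659 and 333, and Ccl3 at 5.84 and 14.7. Ccr7 was at 9.65 and 15.9. The ligand sum was 1666 at 120 h and 992 at 168 h, and the receptor sum was 117 and 166.

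Because the mixture of cells changed, the same values were also set on 2 other scales, each library being shifted so that the mean log2 value of either the 18 blood-cell genes or the stromal genes was level. These scales move the median of all genes by 0.80 (blood) and -2.05 (stroma) at 1 h and by 1.62 and -2.16 at 24 h, so directions are relative to the chosen genes. Relative to blood-cell genes, 14 of the 37 genes were higher and 1 lower at 1 h, where 52.5% of all genes were higher and 0.324% lower. Relative to stromal genes, 5 were higher and 19 lower (2% and 79.7% of all genes). At 72 h the counts were 15 and 1 relative to blood (52.3% and 0.546%) and 7 and 19 relative to stroma (2.99% and 77.6%). At 6 h they were 19 and 1 relative to blood (69.9% and 0.928%) and 0 and 19 relative to stroma (1.72% and 82.6%). For 24 h they were 16 and 1 (78.6% and 1.13%) and 0 and 22 (2.63% and 80.6%), and for 144 h 5 and 1 (2.8% and 0.525%) and 4 and 9 (3.31% and 40.3%). Between 24 h and 144 h, 1 rose and 14 fell relative to blood (1.59% and 75%), and 23 rose and 0 fell relative to stroma (73.9% and 1.29%).

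Some genes kept a call in the same direction on all 3 scales. At 1 h these were Ccl2 (log2 change 1.26 relative to stroma), Ccl7 (1.25), Cxcl1 (1.83), Cxcl2 (0.87) and Ccl20 on the higher side and Ccr2 (-1.02 relative to blood) on the lower side. At 72 h they were Cxcl10 (2.41 relative to stroma), Cxcl11 (2.52), Cxcl9 (1.96), Cxcl5 (1.13), Cx3cl1 (0.84), Cxcl1 (0.80) and Ccl20. Scaling leaves a 0 at 0. The direction of Ccl20, at 0 in every library of 0 h, thus could not turn on any scale. Cxcl2, Cxcl9 and Cxcl11 were close to that case, with 0 h means of 0.124, 0.0946 and 0.177 FPKM. At 144 h Cx3cl1 and Cxcl10 stayed higher. Ccl3 was lower on every scale at 6, 24, 72 and 144 h, with changes relative to blood of -0.95, -1.94, -2.71 and -3.49. Ccl3 and Ccl4 were lower at 6 h than at 1 h, and Cxcr4 was higher at 144 h than at 24 h (0.93 relative to blood), on all scales too.

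Others kept neither call nor direction. Cxcl12, Ccl9, Cxcl1 and Cxcl5 at 6 h turned to -0.40, -0.68, -0.24 and -0.25 relative to stroma, and Ccl4 and Ccl9 at 1 h to -0.45 and -0.47. Cxcr4 turned to 0.24 at 6 h and 0.13 at 24 h relative to blood, Ccr2 at 24 h to 0.54 and Ccl5 between 24 h and 144 h to -0.23. With the stromal mean as a covariate in the fit, none of the 37 genes was called at 1, 6, 24 or 72 h. That fit called few genes of any kind. Of all genes, 0.244% were higher and 0.0288% lower at 1 h, and 0.0791% and 0.0431% at 6 h. At 24 h it was 0.0503% and 0%, and at 72 h 0.0216% and 0.00719%. Ccl2 at 1 h then had a log2 change of 1.54 (SE 0.39, limma adjusted p = 0.0888).

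**Figure D5:**
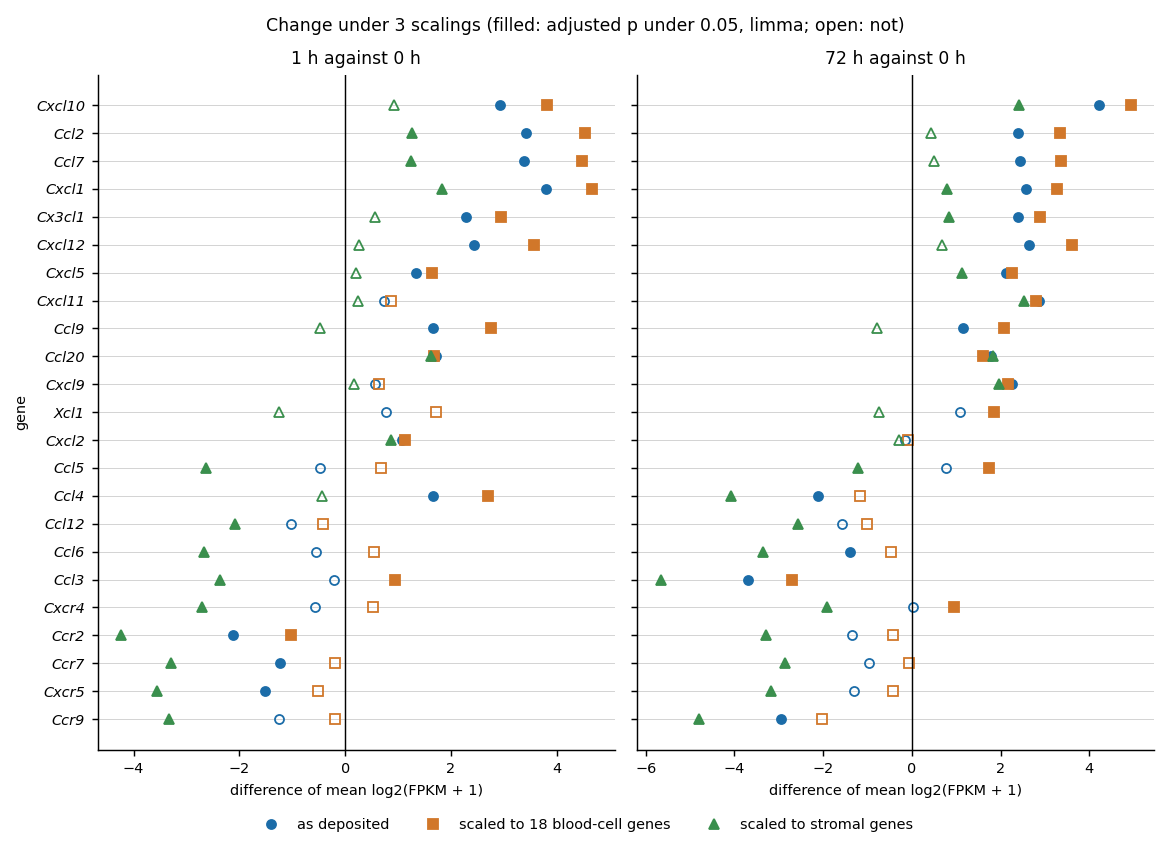
Log2 change from 0 h at 1 h and 72 h of the 23 genes described in full, on the deposited scale and relative to general blood-cell or stromal feeder genes, with filled points for called changes. Points for Ccl2, Ccl7, Cxcl1, Cxcl2 and Ccl20 at 1 h are filled on the positive side on every scale, whereas those for Cxcl12 and Cxcl10 at 1 h are not.

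Genes that carry the signal of chemokine receptors were taken from a separate list of 38 G-protein subunits, arrestins, receptor kinases, regulators and downstream enzymes, of which 36 were tested. At 1 h, 8 were higher and 12 lower than at 0 h (16.8% and 15.3% of all genes), at 24 h 7 and 17 (20.8% and 22.5%), and at 144 h 6 and 2 (5.64% and 3.24%). Rgs16, which shortens G-protein signals, was higher at 1 h (log2 change 2.15), as was the focal adhesion kinase Ptk2 (1.93), which was also higher at 6 h (2.33) and 24 h (2.20). Rgs18, a regulator of blood cells, was lower at 1 h (-1.89). Pik3cd, the leukocyte PI3-kinase, was lower at 24 h (-2.50) and rose by 144 h (2.68 from 24 h), in the direction of Cxcr4 and Ccr7. In that last comparison 17 of the 36 rose and 4 fell (17.4% and 15.6% of all genes), next to 17 of the 18 blood-cell genes higher.

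Relatives outside the naming pattern were few. The list held 12 symbols, some of them older and newer names of the same gene. Of these symbols 8 were in the table and 4 were tested (Ccrl2, Cmklr1, Pf4 and Ppbp). Ccrl2, an atypical receptor, went from a mean of 0.129 FPKM at 0 h to 5.19 at 72 h (log2 change 2.41, limma adjusted p = 3.12e-05). Ppbp, a platelet CXC chemokine, was higher at 6 h (1.81) and 24 h (2.01).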

How the data were processed

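The authors deposited 1 FPKM value per gene for each of 44 polyA RNA libraries, called corrected in the table with no statement of what was corrected. TopHat2 2.1.0, Cufflinks 2.1.1 and the mm9 build were used, per the submitters' processing notes. The values were taken here as log2(deposited FPKM + 1), a scale that understates the change of low genes. The 13907 genes that reached 1 FPKM in 3 or more of 42 libraries were fitted with limma 3.58.1 in R 4.3.3 (eBayes with trend, 1 mean per time point, no block), and p-values were adjusted by Benjamini-Hochberg over all genes tested per comparison. The fit was tested on simulated data. The single libraries of 120 h and 168 h were not fitted.

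Genes described in full had a mean of at least 10 FPKM at some replicated time point, or were called in 1 of 7 comparisons with a log2 change of at least 1, which gave 24, of which 23 are described. The remaining gene is not reported here, and counts and sums over the family include it. The genes, lists, motifs and rules were chosen with earlier results of these data known. Relative depth and fragments per gene came from the steps of low values, with the smallest step taken as 1 fragment. Steps were found for 29 of the 58 genes, within 0.05 fragments for at least 90% of a gene's low values. For Cxcl11 the smallest step appeared to be less than 1 fragment, so its fragment numbers are not given. Those of the other genes rest on the same assumption. Runs of library codes in the labels gave 6 sets, and libraries of 48 h and later share no run with 0 h, so a fit with the run as a block compares them with 0 h only through the 8 h to 24 h libraries of replicate 3. Same-numbered libraries deviated together by the set criterion (every correlation over 0.1) in 1 comparison, 6 h against 1 h (0.15, 0.11 and 0.23). At 0 h to 6 h each replicate number is 1 run of library codes.

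Promoters came from RefSeq (GRCm38.p6, 42 of 58 genes matched) and shared stretches from GENCODE M21 transcripts (57 of 58 matched). No coordinates of the mm9 build are given. Alternatives were another pseudocount, other filters, quantile and median-ratio scaling, scaling to blood-cell or stromal genes, the stromal mean as a covariate, blocks for replicate number and library-code run, a fold minimum and leaving out each library. Figures were drawn with matplotlib 3.10.9.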

Additional observations from a re-analysis of the deposited data

How the results depend on the processing

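Under the pseudocount of 0.1 FPKM, no filter, the filter at 5 FPKM, quantile and median-ratio scaling and the 2-fold minimum, each total of called chemokine and receptor genes stayed within 1.5 times its reported value, and no described gene reversed. The number lower at 1 h, however, went from 4 to 1 with the 0.1 FPKM pseudocount and with no filter, and each of these ended 6 calls of described genes. Relative to blood-cell genes the count at 144 h against 24 h was 15. Relative to stromal genes it was 23 there, 24 at 1 h, 26 at 72 h, 13 at 144 h, and 5 between 1 h and 6 h. With the stromal mean as a covariate they were 0 at 1, 6, 24 and 72 h, 1 at 144 h and 13 in the F test. In the same fit they were 5 at 6 h against 1 h and 2 at 144 h against 24 h. The shares of all genes higher and lower were 2.39% and 1.34% at 144 h. They were 2.32% and 3.21% at 6 h against 1 h, and 1.69% and 0.582% at 144 h against 24 h. Leaving out 1 library gave 11 to 13 at 1 h, 13 to 15 at 6 h, 12 to 15 at 24 h, 12 to 16 at 72 h, 3 to 7 at 144 h, 3 to 4 at 6 h against 1 h and 6 to 12 at 144 h against 24 h, and leaving out a replicate number gave 10 to 19 in the F test. No described gene reversed on leaving out a library, while 69 gene values lost a call. The cause of these shifts was not tested.

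With the replicate block the count at 6 h against 1 h was 6 (3.44% of all genes higher and 3.8% lower). That at 144 h against 24 h was 14 (19.8% and 16.8%), where the numbers did not pair the libraries by the set criterion. The block ended no call of a described gene, and 15 gene values gained one. With the library code block the count at 6 h against 1 h was 7 (4.72% of all genes higher and 5.08% lower). This block ended 7 calls of described genes and gave 15. The lost calls were Ccl12 at 24 h, Ccl4 at 72 h, Ccl6 at 144 h, and Ccl2, Ccl7, Cxcl12 and Cxcl5 at 144 h against 24 h.

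Reversed values were as follows. Relative to blood-cell genes, Cxcr4 was at 0.24 at 6 h and 0.13 at 24 h, Ccl6 at 0.52 and Ccr2 at 0.54 at 24 h, and Ccl5 at -0.23 at 144 h against 24 h. Relative to stromal genes, Ccl4 was at -0.45 and Ccl9 at -0.47 at 1 h, Ccl9 at -0.68, Cxcl1 at -0.24, Cxcl12 at -0.40 and Cxcl5 at -0.25 at 6 h, Cxcl12 at -0.17 at 24 h, and Ccl9 at -0.79 at 72 h. Still relative to stroma, at 144 h against 24 h Ccl2 was at 0.27, Ccl7 at 0.40 and Cxcl12 at 0.21. With the stromal covariate, Ccr2 was at 0.42 and Cx3cl1 at -0.075 at 1 h, and Cx3cl1 at -0.35 and Cxcl12 at -0.32 at 6 h. At 24 h it gave Ccr2 1.34, Ccr9 0.99, Cx3cl1 -0.59, Cxcl10 -0.11 and Cxcl12 -0.10, and at 72 h Ccr9 0.84. At 144 h against 24 h it gave Ccl2 0.064, Ccl7 0.10 and Cxcl12 0.17.

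Depth limits the genes near 1 fragment (Ccl1, Ccl12, Ccl17, Ccl20, Cxcl2), where 1 fragment of Ccl20 was worth 1.25 FPKM in the median library. Counting error was not modelled, since absolute depth is not known.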

Other observations

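Ccl4 and Ccl3, which lie next to each other, did not keep a fixed ratio. The ratio of Ccl4 to Ccl3 was 0.0392 to 0.113 at 0 h and 0.321 to 0.685 at 144 h, with no overlap. It did not move steadily, since 8 h (0.0338 to 0.117) and 72 h (0.0514 to 0.467) overlapped 0 h. Ccr9 in replicate 1 at 0 h had about 649 fragments against about 76 and 145 in the other libraries of Ccr9, with relative depths between 0.843 and 3.443 over all libraries.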
